A study of Mus musculus with 6 samples.

Results

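The smooth muscle and matrix integrins are a set of 10 genes chosen by name: the alpha chains *Itga1*, *Itga5*, *Itga7*, *Itga8*, *Itga9*, *Itga11* and *Itgav* and the beta chains *Itgb1*, *Itgb3* and *Itgb5*. All 10 were found among the 55426 genes of the table, and all 10 passed the expression minimum of a mean of 0.5 TPM. TPM is an expression value corrected for transcript length, so levels of different genes can be compared. The abdominal aortas of 3 control mice and 3 *Prdm16* SMKO mice were sequenced after selection of polyadenylated RNA, as 1 library per mouse. *Prdm16* SMKO mice are *Prdm16* fl/fl animals that carry *Myh11*-CreERT2, a tamoxifen-inducible Cre recombinase driven by the promoter of a smooth muscle myosin, and control mice had wild-type *Prdm16* with the same *Myh11*-CreERT2. All mice were male, since this Cre lies on the Y chromosome, were on the C57BL/6J background, received tamoxifen by gavage at 75 mg/kg/day for 5 days at 8 to 10 weeks of age, and were used 2 weeks later without induction of an aneurysm. *Myh11*-CreERT2 also acts in smooth muscle outside the vessel wall, and the other cells of the aorta keep an intact *Prdm16*.

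Integrins are receptors built of an alpha and a beta chain that span the membrane and tie the matrix outside the cell to the actin cytoskeleton inside it. The pairing sets what is bound: *Itga8*, *Itga5* and *Itgav* pairs recognise the RGD motif of fibronectin, nephronectin, vitronectin and related proteins, *Itga1* and *Itga11* with *Itgb1* bind collagens, *Itga7* with *Itgb1* binds laminins, and *Itga9* with *Itgb1* binds tenascin-C, VCAM-1 and other ligands. *Itgb1* is the common partner of most alpha chains, whereas *Itgb3* and *Itgb5* pair with *Itgav*. In the vessel wall these receptors hold the smooth muscle cell to the basement membrane and the elastic lamellae and pass on mechanical load, and *Itga7*, *Itga8* and *Itga1* are known from differentiated smooth muscle.

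*Prdm16*, the deleted gene, was measured at 33.4, 36.8 and 30.8 TPM in the control libraries and at 20.8, 27.7 and 14.8 TPM in the *Prdm16* SMKO libraries. The *Prdm16* SMKO libraries were all below the controls, with a log2 fold change of −0.70 that did not pass the test (adjusted p = 0.376, limma with Benjamini-Hochberg adjustment over 15775 genes). A TPM value covers the whole gene and not the deleted part alone. The study also checked *Prdm16* by qPCR. Markers of smooth muscle were abundant in every library, with *Acta2*, the smooth muscle actin, at 5256 to 13020 TPM and *Myh11* at 1488 to 3242 TPM. Mitochondrial transcripts made up 15.8% to 27.4% of a library and 45S ribosomal RNA 15.6% to 31.4%, and neither separated the 2 groups. A log2 fold change is given here as *Prdm16* SMKO minus control on log2(TPM + 0.5), a call means an adjusted p under 0.05, and p-values measure the spread between these 6 mice.

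Among the 10 integrin chains the number called was 0 (limma), while 4 had an unadjusted p under 0.05, with 3 of them lower and 1 higher in *Prdm16* SMKO mice. Over all 15775 genes tested, 0.355% were called, 0.184% higher and 0.171% lower, and 8.74% had an unadjusted p under 0.05, 4.88% higher and 3.85% lower. The same 4 chains had no overlap between the groups, beside 12.8% of all genes, 7.02% higher and 5.76% lower. *Itgb3*, *Itga9* and *Itga8* were lower in every *Prdm16* SMKO library than in any control library, and *Itga11* was higher in every one. Their directions were unchanged in each of the 21 alternative analyses that gave a value for them. The median log2 fold change of the 10 chains was −0.09, beside 0.02 over all genes tested. In RNA of a whole tissue, fewer cells of a type and less RNA per cell cannot be told apart.

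**Figure D1:**
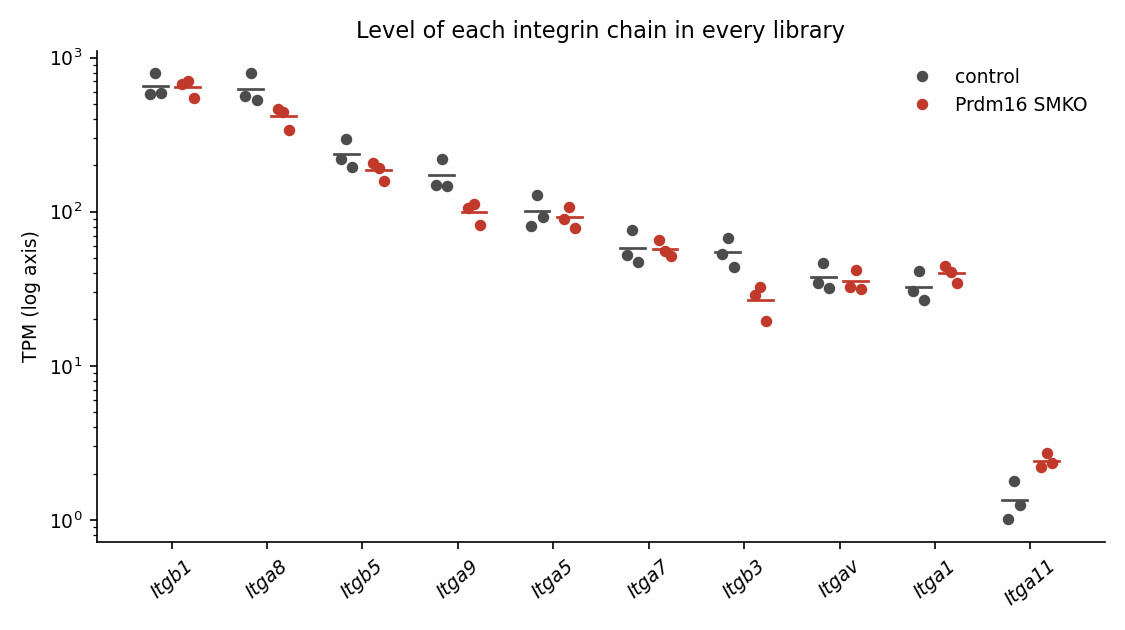
Expression of the 10 integrin chains in each library, in TPM on a log axis, with 1 point per mouse and a bar at the mean of each group of 3. *Itgb3*, *Itga9* and *Itga8* lie lower in all 3 *Prdm16* SMKO libraries than in any control library, *Itga11* lies higher, and the other 6 chains overlap.

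The chains covered a wide range of levels in the control aorta. *Itgb1* (ENSMUSG00000025809, chr8:128685654-128733200, forward strand) had the highest mean at 654 ± 121 TPM (SD, n = 3), followed by *Itga8* (ENSMUSG00000026768, chr2:12106632-12301922, reverse strand) at 629.5 ± 142.5 TPM. *Itgb5*, *Itga9* and *Itga5* followed with control means of 238, 172.5 and 100.3 TPM, and *Itga7*, *Itgb3*, *Itgav* and *Itga1* with 58.5, 54.8, 37.6 and 32.7 TPM. *Itga11* was far below the rest at 1.35 ± 0.400 TPM. Neighbours in this order were compared within the 6 libraries by an exact two-sided sign-flip permutation test, whose smallest p is 0.0313. In 6 of the 9 neighbour pairs the first gene was higher in 6 of 6 libraries (exact permutation test, adjusted p = 0.0469). In the other 3 pairs the order differed between libraries. *Itga7* was above *Itgb3* in 5 of 6 libraries (exact permutation test, adjusted p = 0.0804), the exception being control library 1. *Itgb3* was above *Itgav* in 3 of 6 (exact permutation test, adjusted p = 0.875), which were the 3 control libraries, and below it in all 3 *Prdm16* SMKO libraries. *Itgav* was above *Itga1* in 4 of 6 (exact permutation test, adjusted p = 0.875), the 3 control libraries and *Prdm16* SMKO library 2. The test pools both groups, so for none of the 9 pairs does it speak to the order in control mice alone. The order was itself taken from the 3 control libraries, which are among the 6 tested. The direction of each pair was thus partly set in advance, and these p-values are not independent support for the order. In control libraries 1, 2 and 3, *Itgb1* was at 584, 794 and 585 TPM and *Itga8* close below it at 564, 793 and 531 TPM.

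Sequence before the start of transcription was looked up for the chains, since *Itga8* and *Itgb1* are made at like levels in the control aorta and were not alike in *Prdm16* SMKO mice. RefSeq windows on GRCm38.p6, reaching from 250 bases before to 50 bases after the start, were matched for 8 of the 10 chains. *Itga7* and *Itgb3* were not matched. Both strands were searched for the AP-1 site TGAGTCA (or its reverse complement TGACTCA), the TEAD site GGAATG, the GC box GGGCGG and the CArG box of serum response factor. A CArG box was found in 0 of the 8 windows, an AP-1 site in 1 (*Itga9*), a TEAD site in 1 (*Itgb1*) and a GC box in 4. Among all 32851 windows of the same length the shares were 1.63%, 5.20%, 14.7% and 35.7%. The window of *Itga9* lies inside the gene as GENCODE M21 places it, downstream of its annotated 5′ end. The windows of *Itga8* (chr2:12301895-12302194, reverse strand), in which none of the motifs was found, and of *Itgb1* (chr8:128685404-128685703, forward strand), with its GC box and TEAD site in capitals, read as follows.
Itga8: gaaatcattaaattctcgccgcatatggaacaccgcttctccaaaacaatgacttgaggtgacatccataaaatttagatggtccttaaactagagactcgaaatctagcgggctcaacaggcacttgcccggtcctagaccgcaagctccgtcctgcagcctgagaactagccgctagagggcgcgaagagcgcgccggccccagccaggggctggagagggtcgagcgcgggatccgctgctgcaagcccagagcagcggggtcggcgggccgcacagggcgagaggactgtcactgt
Itgb1: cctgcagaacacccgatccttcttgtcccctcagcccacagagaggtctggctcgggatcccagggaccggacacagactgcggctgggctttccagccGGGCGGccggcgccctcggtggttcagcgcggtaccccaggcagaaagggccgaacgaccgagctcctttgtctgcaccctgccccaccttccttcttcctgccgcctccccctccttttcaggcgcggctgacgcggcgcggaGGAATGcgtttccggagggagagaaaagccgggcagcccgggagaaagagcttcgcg

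*Itgb3* (ENSMUSG00000020689, chr11:104608000-104670476, forward strand) encodes the beta 3 chain, which pairs with *Itgav* in the vessel wall and with *Itga2b* in platelets. It was measured at 52.8, 67.9 and 43.7 TPM in control mice and at 28.7, 32.3 and 19.6 TPM in *Prdm16* SMKO mice. The highest *Prdm16* SMKO library stayed below the lowest control library. The group means were 54.8 ± 12.2 and 26.9 ± 6.55 TPM (SD, n = 3), and the log2 fold change was −1.02 with a standard error of 0.23 (95% confidence interval −1.55 to −0.50). This had the smallest p of the 10 chains and did not pass the correction (unadjusted p = 0.00184, adjusted p = 0.150, limma). Over the alternatives the adjusted p ran from 0.0227 to 0.399. *Itgb3* was called with median-of-ratios size factors (where 0.971% of all genes were called), with trends on GC content and transcript length removed (0.945%) and with array weights (3.13%). The study listed *Itgb3* among the genes it found lower at an adjusted p under 0.05 in these same libraries. The main analysis here did not call it, and its place here is not independent evidence.

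The summed level of platelet markers overlapped between the groups, at 16.98 to 33.0 TPM in control mice and 24.0 to 112 TPM in *Prdm16* SMKO mice. Of the tested markers, 7 of 7 had a positive difference and 0 were called. The highest sum was in *Prdm16* SMKO library 2, which also held the most *Itga2b* (10.9 TPM, against 1.3 to 3.26 TPM in the other libraries) and the highest *Itgb3* of its group. The part of platelet content was not tested.

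*Itga9* (ENSMUSG00000039115, chr9:118606690-118901003, forward strand) encodes the alpha 9 chain, a receptor for tenascin-C. Its levels were 149, 221 and 148 TPM in control mice and 105, 112 and 82.2 TPM in *Prdm16* SMKO mice. The groups did not overlap. Means were 172.5 ± 41.9 and 99.8 ± 15.6 TPM, with a log2 fold change of −0.77 (standard error 0.20, 95% confidence interval −1.24 to −0.31, adjusted p = 0.247, limma). Leaving out each library in turn gave −0.87 to −0.58.

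The most abundant alpha chain was *Itga8*, whose product binds fibronectin and nephronectin. It was measured at 564, 793 and 531 TPM in control mice and at 464, 442 and 341 TPM in *Prdm16* SMKO mice. Again no *Prdm16* SMKO library reached the lowest control. The means of 629.5 ± 142.5 and 416 ± 65.7 TPM gave a log2 fold change of −0.59 (standard error 0.20, 95% confidence interval −1.05 to −0.12, adjusted p = 0.436, limma). *Itga8* shares 372 exonic bases with the antisense gene *E030013I19Rik*, and the library kit does not mark strand, so reads of the shared bases cannot be told apart. *E030013I19Rik* was listed at 75.8 to 140 TPM, with a log2 fold change of −0.37 (adjusted p = 0.639, limma).

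*Itga11* (ENSMUSG00000032243, chr9:62677826-62783982, forward strand) encodes a collagen receptor chain known mainly from fibroblasts. Its level was 1.01, 1.79 and 1.25 TPM in control mice and 2.22, 2.71 and 2.35 TPM in *Prdm16* SMKO mice. Each *Prdm16* SMKO library was above each control. The log2 fold change was 0.68 with a standard error of 0.25 (95% confidence interval 0.10 to 1.26, adjusted p = 0.474, limma). At these levels the pseudocount of 0.5 TPM understates the change, and the reads behind the values are unknown. The summed fibroblast markers overlapped between the groups, at 1844 to 2106 TPM in control and 1599 to 2910 TPM in *Prdm16* SMKO mice. Of the 9 markers, 8 had a positive difference, and *Col1a1*, the marker without overlap, was lower (−0.54, adjusted p = 0.448, limma).

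The other collagen receptor chain, *Itga1* (ENSMUSG00000042284, chr13:114953096-115101964, reverse strand), was measured at 30.4, 41.1 and 26.6 TPM in control mice and at 44.3, 40.6 and 34.5 TPM in *Prdm16* SMKO mice. The groups overlapped, and the log2 fold change was 0.29 (95% confidence interval −0.15 to 0.74, adjusted p = 0.807, limma). It shares 685 exonic bases on the same strand with *Gm49395*, listed at 1.16 to 3.74 TPM.

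*Itgb5* (ENSMUSG00000022817, chr16:33829665-33949338, forward strand), a partner of *Itgav* in a vitronectin receptor, was measured at 221, 298 and 195 TPM in control mice and at 207, 192 and 158 TPM in *Prdm16* SMKO mice. The groups overlapped in 1 library, *Prdm16* SMKO library 1, and the log2 fold change was −0.34 (95% confidence interval −0.78 to 0.10, adjusted p = 0.724, limma).

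The fibronectin receptor chain *Itga5* (ENSMUSG00000000555, chr15:103344286-103366763, reverse strand) was at 80.2, 129 and 91.9 TPM in control mice and at 89.7, 107 and 78.5 TPM in *Prdm16* SMKO mice. *Itgav* (ENSMUSG00000027087, chr2:83724397-83806916, forward strand), which serves *Itgb3* and *Itgb5* as well as *Itgb1*, was at 34.4, 46.6 and 31.9 TPM and at 32.6, 42.1 and 31.4 TPM. Both overlapped between the groups, with log2 fold changes of −0.11 (95% confidence interval −0.58 to 0.36, adjusted p = 0.961, limma) and −0.08 (−0.52 to 0.36, adjusted p = 0.974, limma). The laminin receptor chain *Itga7* (ENSMUSG00000025348, chr10:128933818-128958282, forward strand) was at 52.7, 75.9 and 47.0 TPM in control mice and at 65.6, 55.5 and 51.4 TPM in *Prdm16* SMKO mice.

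*Itgb1*, the common beta chain, was at 584, 794 and 585 TPM in control mice and at 674, 709 and 548 TPM in *Prdm16* SMKO mice. *Itga7* and *Itgb1* had log2 fold changes of −0.00 (95% confidence interval −0.46 to 0.46, adjusted p = 0.999, limma) and −0.02 (−0.44 to 0.41, adjusted p = 0.994, limma). These intervals leave room for changes of either sign, and the signs of *Itga5*, *Itga7*, *Itgav* and *Itgb1* turned in some of the alternative analyses, among them the one without control library 2.

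**Figure D2:**
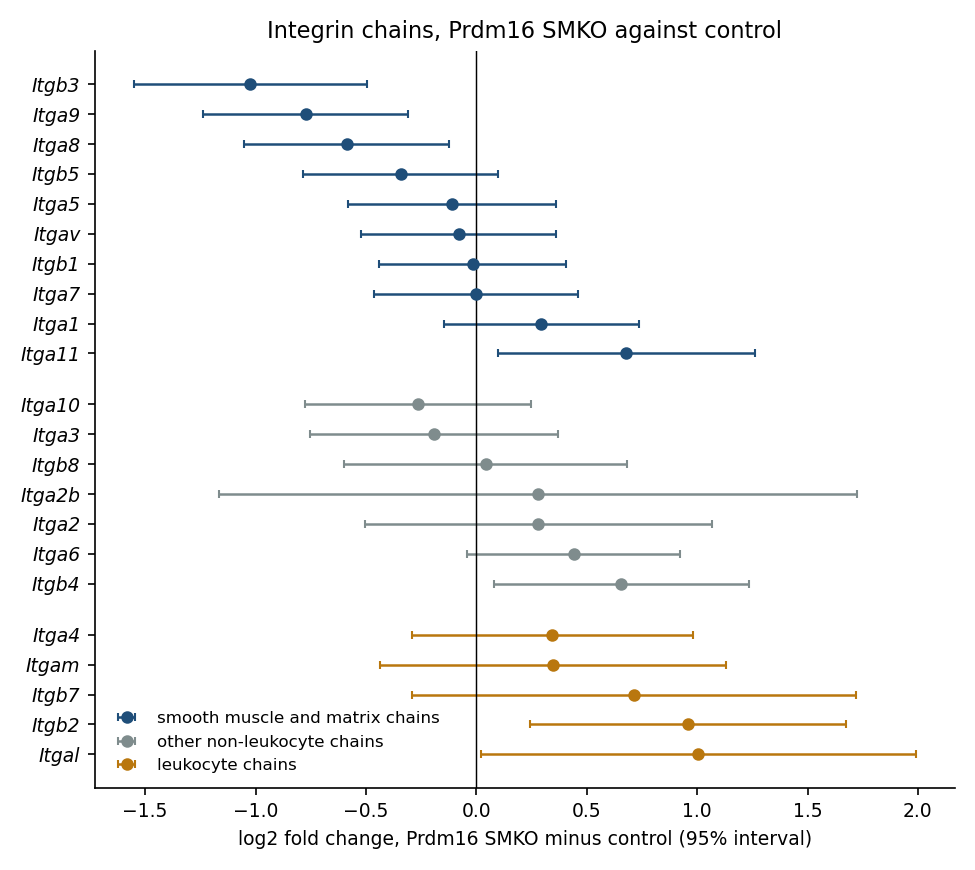
Log2 fold change, *Prdm16* SMKO minus control, of the 10 smooth muscle and matrix chains and of the other tested integrin chains, with bars for the 95% confidence interval of limma. The bars of *Itgb3*, *Itga9* and *Itga8* end below 0, that of *Itga11* starts above 0, and those of the other 6 chains cross 0.

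A share or a ratio within a library does not depend on how the library was scaled. Of the summed TPM of the 7 alpha chains, *Itga8* made up 60.6% to 61.9% in control mice and 54.9% to 57.8% in *Prdm16* SMKO mice. *Itga9* made up 16.4% to 16.9% and 13.1% to 14.0%. Neither share overlapped between the groups. The shares of the other 5 alpha chains were all higher without overlap. *Itga5* was at 8.80% to 10.5% in control and 11.2% to 13.4% in *Prdm16* SMKO mice and *Itga7* at 5.35% to 5.799% and 6.92% to 8.28%. Shares sum to the whole, so the summed share of these 5 chains had to rise, and a chain of flat level gains share when *Itga8* and *Itga9* are lower. The levels of *Itga5*, *Itga7*, *Itgav* and *Itga1* overlapped between the groups, with log2 fold changes of −0.11, −0.00, −0.08 and 0.29. A higher share is thus not a higher level. Of the 3 beta chains, *Itgb1* took 68.1% to 71.0% in control and 74.1% to 75.9% in *Prdm16* SMKO mice, *Itgb3* took 5.30% to 6.16% and 2.698% to 3.46%, and *Itgb5* took 23.7% to 25.8% and 20.6% to 22.8%. The level of *Itgb1* overlapped between the groups, with a log2 fold change of −0.02. The alpha chains summed to 878 to 1308 TPM in control mice and to 621 to 804 TPM in *Prdm16* SMKO mice, most of it *Itga8*. The beta chains summed to 824 to 1159 TPM and 726 to 933 TPM, and all 10 chains to 1702 to 2467 TPM and 1347 to 1736 TPM. The last 2 sums overlapped between the groups.

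**Figure D3:**
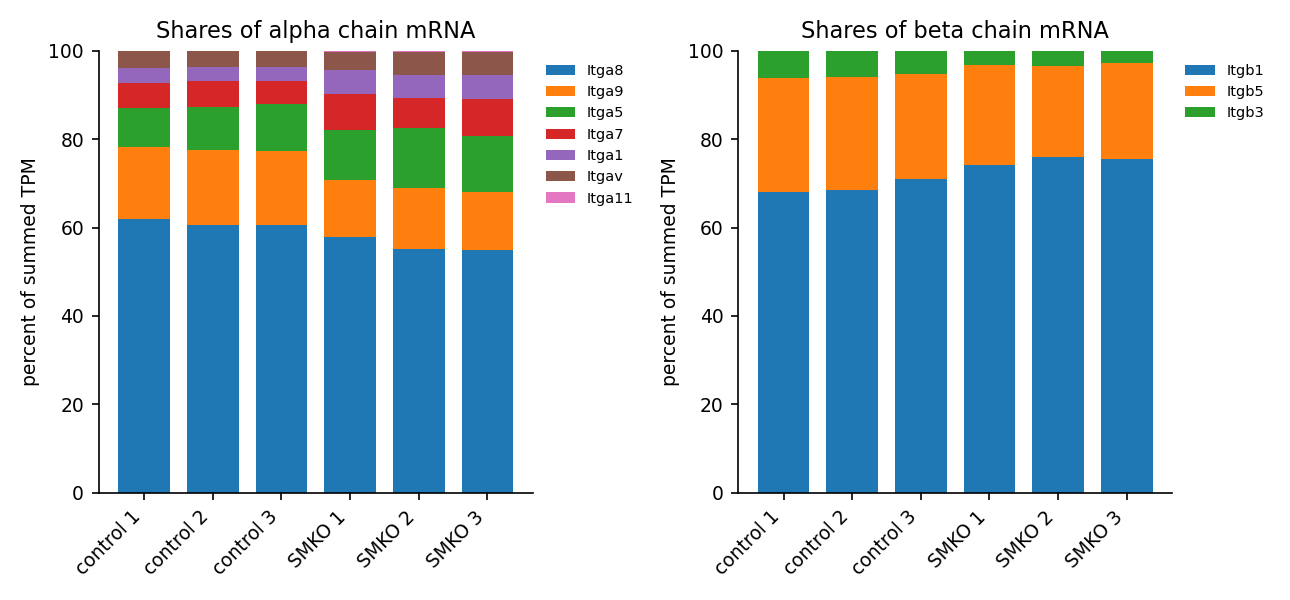
Share of each alpha chain (left) and each beta chain (right) in the summed TPM of its kind, in percent, with 1 stacked bar per library. *Itga8* lies between 60.6% and 61.9% of the alpha chains in the control bars and between 54.9% and 57.8% in the *Prdm16* SMKO bars, and *Itgb3* is the thinnest band of the beta chains in all 6.

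Alpha to beta ratios were taken for 9 known heterodimers, with exact two-sided permutation tests whose smallest p is 0.1. The ratio of *Itga8* to *Itgb1* was 0.967, 0.999 and 0.9085 in control mice and 0.689, 0.624 and 0.622 in *Prdm16* SMKO mice. For *Itga9* to *Itgb1* it was 0.2555, 0.278 and 0.252 against 0.156, 0.158 and 0.150. Both ratios were lower in every *Prdm16* SMKO library, by −0.57 and −0.76 on the log2 scale, and varied less within a group than the levels themselves. *Itgav* to *Itgb3* went the other way, at 0.651, 0.686 and 0.729 in control mice and 1.14, 1.303 and 1.605 in *Prdm16* SMKO mice, a log2 difference of 0.94. In each control library *Itgb3* was thus above *Itgav*, and in each *Prdm16* SMKO library *Itgav* was above *Itgb3*.

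*Itga11* to *Itgb1* and *Itga1* to *Itgb1* were higher in every *Prdm16* SMKO library, with log2 differences of 0.70 and 0.31. In all, 5 of the 9 ratios did not overlap, 3 higher and 2 lower (exact permutation test, p = 0.1 and adjusted p = 0.18 for each). Of the levels of all genes tested, 12.8% had no overlap. The share without overlap was not computed for ratios over all genes, so the 5 of 9 cannot be set against a background. The ratios of *Itga5*, *Itga7* and *Itgav* to *Itgb1* and of *Itgav* to *Itgb5* overlapped, with log2 differences of −0.09, 0.02, −0.06 and 0.26. The 9 ratios share chains and are not independent of each other.

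**Figure D4:**
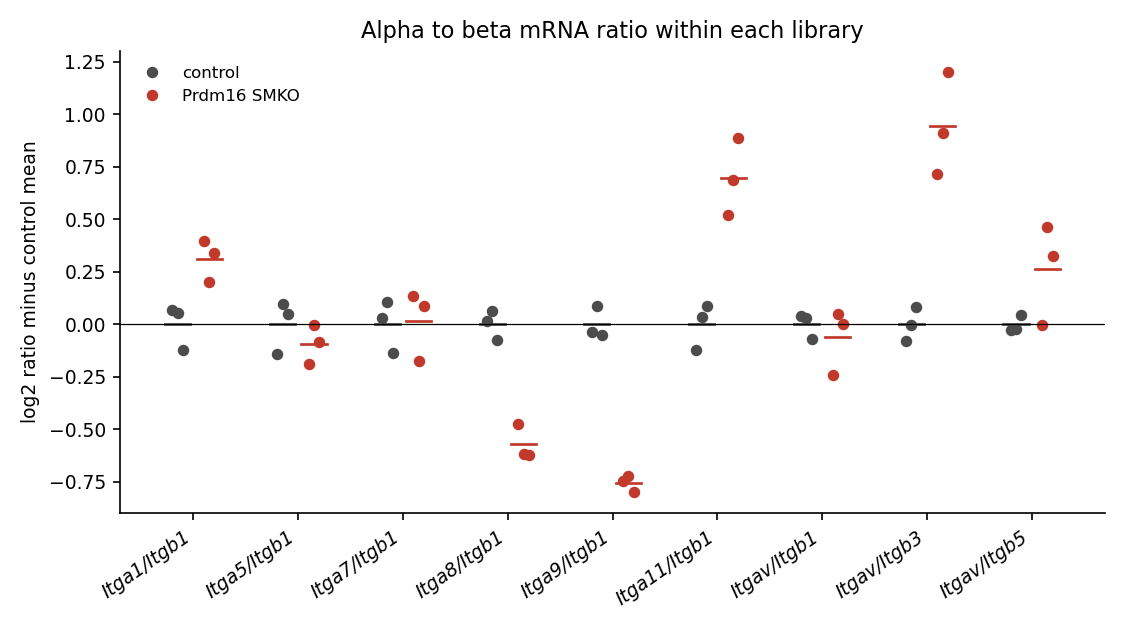
Log2 of the alpha to beta ratio in each library for 9 heterodimers, taken as the difference from the control mean of that ratio, with 1 point per mouse and a bar at the mean of each group. The points of *Itga8* to *Itgb1* and *Itga9* to *Itgb1* lie lower in all 3 *Prdm16* SMKO libraries, those of *Itgav* to *Itgb3*, *Itga11* to *Itgb1* and *Itga1* to *Itgb1* lie higher, and the other 4 ratios overlap.

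A further analysis, chosen after the data were seen, expressed every gene relative to *Itgb1* of the same library. It called *Itga9* (−0.76, adjusted p = 0.0275, limma) and *Itgb3* (−1.01, adjusted p = 0.0292, limma) among 105 of 15774 genes, 0.666% of them. *Itga8* stood at −0.57 (adjusted p = 0.0854, limma). The median of all genes was 0.04 on this scale.

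Of 9 smooth muscle markers, 7 had a negative difference, 2 a positive one and 0 were called (limma). An unadjusted p under 0.05 was found for 3 of the 9, beside 8.74% of all genes tested. The median log2 fold change of the 9 markers was −0.32. Their summed level overlapped between the groups, at 15109 to 25593 TPM in control mice and 11705 to 17908 TPM in *Prdm16* SMKO mice. *Cnn1*, calponin, was the marker without overlap (−0.48, adjusted p = 0.571, limma). *Des*, desmin, at 0.51 (adjusted p = 0.546, limma) and *Myocd*, myocardin, at 0.13 (adjusted p = 0.945, limma) had the positive differences. Expressed relative to the mean of these markers, an analysis also chosen after the data were seen in which 0.513% of all genes and 0 of the 10 chains were called, *Itgb3* stood at −0.81 (adjusted p = 0.0832, limma), *Itga9* at −0.56 (adjusted p = 0.135, limma) and *Itga8* at −0.37 (adjusted p = 0.263, limma), with the median of all genes at 0.24 on this scale. *Itga11* stood at 0.89 (adjusted p = 0.254, limma). The part of smooth muscle content in the results was not tested.

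Genes whose course over the 6 libraries was most like that of a chain were found by the root mean square difference of centred log2 values, among 15774 other genes. For *Itgb3* these were *Dapk2* (0.10), a death-associated protein kinase, *Synpo2l* (0.11), an actin-associated protein of muscle, and *Cav3* (0.11), the muscle caveolin. All 3 were lower in every *Prdm16* SMKO library, as the choice by likeness implies, and *Cav3* was at 18.4 to 24.7 TPM in control and 7.53 to 12.3 TPM in *Prdm16* SMKO mice. *Itga9* came at rank 17 (0.17) and *Itga8* at rank 101 (0.25), while *Itgb1* was at rank 4250 (0.52). For *Itgb1* the nearest genes were *Rcn2*, *Phldb2* and *Ubqln2* (each 0.03), and *Itgav* (0.10) and *Itga5* (0.10) were the nearest of the other 9 chains, at ranks 832 and 838. These are descriptions over 6 libraries that share a scaling.

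The rest of the integrin family was read from lists taken from general knowledge. Of 8 other chains of non-leukocyte cells, 7 were tested, with 5 differences above 0 and 0 called (limma). Beside 8.74% of all genes tested, 1 of the 7 had an unadjusted p under 0.05. That chain was *Itgb4*, the beta 4 chain of the laminin receptor of hemidesmosomes, at 7.02, 7.47 and 4.93 TPM in control mice and 8.29, 14.7 and 9.06 TPM in *Prdm16* SMKO mice (0.66, adjusted p = 0.492, limma). *Itga6*, its partner, stood at 0.44 (adjusted p = 0.641, limma) and *Itga10*, a collagen receptor chain, at −0.27 (adjusted p = 0.869, limma). The median of the 7 was 0.28.

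Of 8 leukocyte chains, 5 were tested, 5 of 5 differences were above 0 and 0 were called (limma). An unadjusted p under 0.05 was found for 2 of the 5, beside 8.74% of all genes tested. *Itgb2*, the common beta chain of leukocyte integrins, was at 1.15, 1.29 and 0.87 TPM in control mice and 1.69, 4.03 and 2.49 TPM in *Prdm16* SMKO mice (0.96, adjusted p = 0.394, limma). *Itgal*, its alpha partner in LFA-1, stood at 1.01 (adjusted p = 0.556, limma) and *Itgb7* at 0.71 (adjusted p = 0.774, limma). Macrophage markers moved in the same direction, with 9 of 9 differences above 0, 0 called (limma) and sums of 81.7 to 128 TPM in control and 129 to 237 TPM in *Prdm16* SMKO mice. Of the 9, 6 had an unadjusted p under 0.05, beside 8.74% of all genes tested, and 4 had no overlap, beside 12.8%. No leukocyte chain exceeded 4.25 TPM in a library, and the part of macrophage content was not tested.

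What the receptors bind was read from 30 ligand genes, of which 29 were tested, 0 were called (limma) and 9 had an unadjusted p under 0.05, with 8 of the 9 lower in *Prdm16* SMKO mice. The same number, 9 of 29, had no overlap between the groups, again 8 of them lower, and the median was −0.24. Over all genes tested, 8.74% had an unadjusted p under 0.05, 12.8% had no overlap and 5.76% had none and were lower. *Fn1*, fibronectin, was at 1378, 1655 and 1111 TPM in control mice and 806, 1067 and 636 TPM in *Prdm16* SMKO mice (−0.74, adjusted p = 0.367, limma). *Npnt*, nephronectin, a ligand of the alpha 8 chain, was at 367, 555 and 345 TPM against 286, 301 and 232 TPM (−0.60, adjusted p = 0.437, limma). *Tnc*, tenascin-C, a ligand of the alpha 9 chain, was at 57.9, 71.9 and 47.2 TPM against 44.9, 42.6 and 35.1 TPM (−0.51, adjusted p = 0.467, limma). Other ligands of the alpha 9 chain had positive differences with overlap, *Vcam1* at 0.28 (adjusted p = 0.922, limma) and *Svep1* at 0.54 (adjusted p = 0.764, limma).

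*Ccn1*, a matricellular ligand of *Itgav* integrins, had the smallest p of the list, at 688, 699 and 519 TPM in control mice and 65.0, 211 and 175 TPM in *Prdm16* SMKO mice (−2.23, adjusted p = 0.0638, limma). It was called without *Prdm16* SMKO library 1 (−1.71, adjusted p = 0.0195, limma), at a minimum mean of 2 TPM (adjusted p = 0.0315, limma) and with array weights (adjusted p = 0.00875, limma), where 0.391%, 0.635% and 3.13% of all genes were called. Immediate-early genes, to which *Ccn1* is related in its fast induction, were lower in the same libraries. Their sums were 610 to 839 TPM in control and 218 to 366 TPM in *Prdm16* SMKO mice. Of these 12 genes, 6 were called lower (limma), beside 0.171% of all genes tested. The part of these genes was not tested.

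*Col3a1*, a fibrillar collagen, stood at −0.74 (adjusted p = 0.234, limma), and *Lamb1*, a laminin chain, was the higher gene at 1.06 (adjusted p = 0.317, limma). *Vtn*, vitronectin, at 0.37 (adjusted p = 0.867, limma), and *Spp1*, osteopontin, at 0.51 (adjusted p = 0.789, limma), overlapped between the groups. The study had picked *Fn1*, *Ccn1*, *Col3a1* and *Hspg2* of this list from these libraries, so the counts of the list are not independent evidence of direction. By qPCR of abdominal aorta, the study reported significantly lower *Ccn1* and *Col3a1* in *Prdm16* SMKO mice.

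Of 40 genes whose products bind the cytoplasmic tails or the adhesion complex behind them, 39 were tested and 0 were called (limma). An unadjusted p under 0.05 was found for 4, 2 in each direction, beside 8.74% of all genes tested. Of the 39, 5 had no overlap between the groups, beside 12.8% of all genes tested. The median of the 39 was −0.09, beside 0.02 over all genes. *Ptk2b*, a focal adhesion kinase relative, stood at 0.74 (adjusted p = 0.367, limma) and *Csrp1*, a smooth muscle LIM protein, at −0.61 (adjusted p = 0.424, limma).

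Proteins at the integrin tail itself were among those not called. *Tln1*, talin, stood at −0.15 (adjusted p = 0.944, limma), *Fermt2*, kindlin-2, at −0.27 (adjusted p = 0.722, limma) and *Ilk*, integrin-linked kinase, at −0.46 (adjusted p = 0.587, limma). *Fermt2* did not overlap between the groups, at 157, 188 and 150 TPM in control mice and 140, 144 and 126.5 TPM in *Prdm16* SMKO mice. The study had also listed *Fermt2*, *Ilk*, *Src* and *Lims2* as lower from these libraries, so the counts of this list are not independent evidence either.

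**Figure D5:**
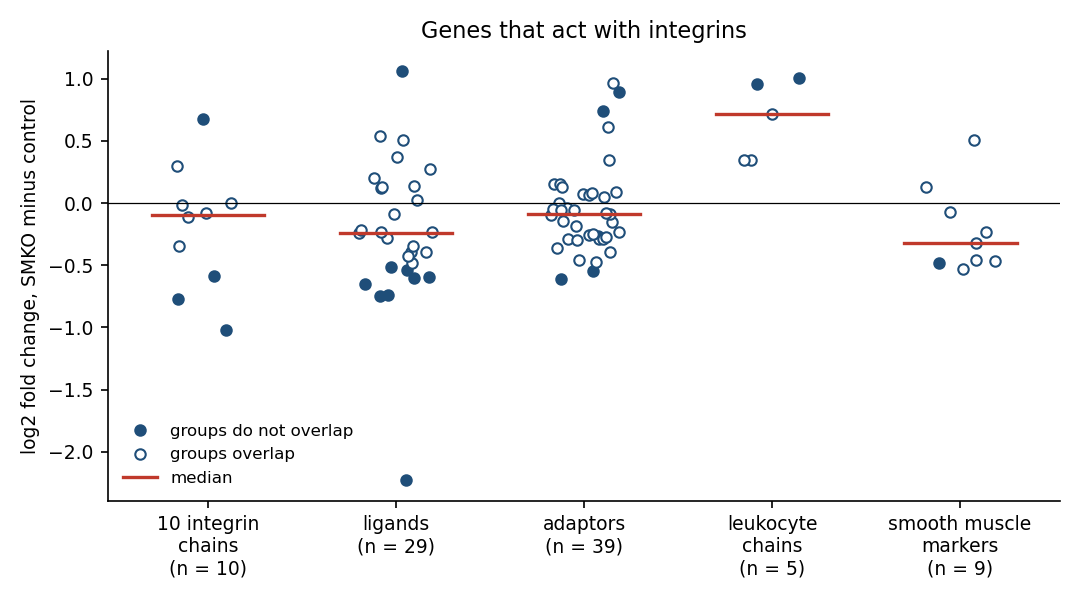
Log2 fold change, *Prdm16* SMKO minus control, of each tested gene in 5 lists, with filled points for genes whose groups do not overlap, open points for the others and a red line at the median of the list. The 10 integrin chains and the 29 ligands have medians of −0.09 and −0.24, and the lowest ligand is *Ccn1* at −2.23.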

How the data were processed

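RNA of abdominal aorta from 3 control and 3 *Prdm16* SMKO mice was analysed. The authors deposited 1 TPM value per gene and library, rounded to 2 decimals, and the submitters' processing notes name bcl2fastq, cutadapt 2.3, FastQC 0.11.8, STAR 2.7.8a, RSEM 1.3.3, MultiQC 1.7 and GRCm38. Read pairs were of 151 bp and averaged 40 M pairs a library. TPM keeps no record of reads, so the depth of single libraries is unknown. Positions are from GENCODE M21 on GRCm38 and promoter windows from RefSeq on GRCm38.p6.

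Values of log2(TPM + 0.5) for the 15775 genes averaging 0.5 TPM or more were compared by limma 3.58.1 in R 4.3.3, with moderated variances that follow a trend and two-sided p-values with Benjamini-Hochberg adjustment over all genes tested. The fit was tested on simulated data. Other steps used Python 3.11.15, pandas 2.3.3, numpy 2.4.6, scipy 1.17.1 and matplotlib 3.10.9. All 10 chains were named, with *Prdm16*, the 3 genes of smallest p in each list, and fixed ligands and tail-binding genes. An adaptor gene that this rule names is counted in its list and is otherwise not reported here. *Acta2*, *Myh11*, *Cnn1*, *Des*, *Myocd*, *Col1a1*, *Vcam1*, *Svep1* and *E030013I19Rik* were named for their bearing on a result. *Hspg2*, *Src* and *Lims2* were named because the study had listed them. The members and lists were chosen with earlier results of these data known. In all, 19 alternatives were planned (pseudocounts, expression minimums, scalings, variance models, a replicate block and each library left out) and 2 were added after the data were seen.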

Additional observations from a re-analysis of the deposited data

How the results depend on the processing

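With depth unknown, the counting error behind a TPM value could not be given. The number of the 10 chains called was 1 with median-of-ratios size factors (*Itgb3*, adjusted p = 0.0404, limma) and 1 with trends on GC content and transcript length removed (*Itgb3*, 0.0383), 2 with array weights (*Itgb3*, 0.0227, and *Itga11*, 0.0494) and 2 relative to *Itgb1*, the last chosen after the data were seen. Array weights gave control library 1 a weight of 10.1, against 0.414 to 0.954 for the others. It was 0 under the other alternatives, each library left out included. The cause was not tested. Ligands called numbered 1 at a minimum of 2 TPM (*Ccn1*), 2 with array weights (*Ccn1* and *Col3a1*, 0.0334) and 0 to 1 without each library (*Ccn1* without *Prdm16* SMKO library 1). Adaptors called numbered 1 with size factors, quantile normalization, TPM rescaled without mitochondrial genes and 45S ribosomal RNA, GC content and length trends removed, robust variances and array weights.

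The log2 fold change of *Itga5* turned to 0.18 with array weights and to 0.10 relative to the smooth muscle markers, and ran from −0.26 to 0.0851 without each library. *Itga7* turned to 0.0313 with quantile normalization, 0.0446 without mitochondrial genes, 0.0143 without these and 45S ribosomal RNA, 0.0184 with GC and length trends removed, 0.11 with array weights, 0.0156 relative to *Itgb1* and 0.21 relative to the smooth muscle markers, and ran from −0.14 to 0.20 without each library. *Itgav* turned to 0.0416 with array weights and 0.13 relative to the smooth muscle markers, and ran from −0.21 to 0.0829. *Itgb1* turned to 0.0293 without mitochondrial genes, 0.14 with array weights and 0.20 relative to the smooth muscle markers, and ran from −0.0915 to 0.13.

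The replicate numbers did not pair the mice: same-numbered deviations correlated at −0.13, −0.11 and 0.02, and no library correlated best with the one of its own number. With a replicate block 0 of the 10 chains were called and 4 of 15775 genes, against 56 (29 higher, 27 lower) without it. All genes called numbered 153 with size factors (60 higher, 93 lower), 134 with quantile normalization (48 higher, 86 lower), 149 with GC and length trends removed (60 higher, 89 lower), 123 without mitochondrial genes and 45S ribosomal RNA, 112 with robust variances, 494 with array weights, 105 relative to *Itgb1*, 33 without a variance trend, 10 with no expression minimum and 5 to 61 without each library. The cause was not tested.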
